A study of Mus musculus with 10 samples.

Results

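The distal colon and the ileum of aged mice were compared on 4 Affymetrix mouse genome arrays, 2 of each segment, out of 10 arrays in the series. The arrays were taken by the tissue and diet given in the labels, and the distal colon was set against the ileum within each diet. All mice were males of the outbred ICR stock, aged 28 months and kept singly under specific-pathogen-free conditions. From 8 months of age one group ate the AIN-93 diet and the other that diet with 1 to 2% LB81 yogurt added. Equal amounts of RNA from the 9 control mice, or from the 10 yogurt-fed mice, were pooled for each tissue, and 100 ng of each pool was amplified and hybridised to 1 array. Pooling averages the mice before the measurement, so the spread between mice was not measured. The labels do not say how long each segment was, where it was cut, or whether the muscle wall was kept, and the 2 segments came from the same mice. Jejunum arrays of the same mice are given beside some genes, to show whether a gene also differed along the small intestine.

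The ileum is the last stretch of the small intestine. Its enterocytes finish the uptake of fat, peptides and sugars, and they alone in the gut take up most conjugated bile acids and the vitamin B12 bound to intrinsic factor. Paneth cells, which secrete defensins and other antimicrobial proteins, sit at the base of small intestinal crypts and are normally absent from the distal colon. The distal colon absorbs sodium and water, oxidises short-chain fatty acids made by bacteria, and is lined by a thick mucus layer secreted by goblet cells. Hox genes, which encode transcription factors laid out in clusters, keep a record of position along the body axis in the gut wall and its lining.

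Values are log2 expression values as deposited, 1 per probe set and array. Differences are distal colon minus ileum on the log2 scale, so that positive values mean higher in distal colon, and 1 unit is 2-fold. Each comes with its standard error (SE) from a limma model with terms for tissue and diet, which was fitted to the 10 arrays together and left 4 residual degrees of freedom. Values below an array's median, called the floor, were raised to it. The files hold no detection calls, and a difference against a segment at the floor is therefore a lower bound, whose SE and p-value can be too small. Since each tissue and diet has 1 array, the error behind a p-value is the unevenness of the diet difference from tissue to tissue. The variation among mice does not enter it. A gene was called when its Benjamini-Hochberg adjusted p was under 0.05 and the difference was at least 2-fold. Where values are listed for a segment, the control pool comes before the yogurt pool.

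The 4 arrays were alike in their medians, but a measure of RNA quality differed between the segments. Their medians lay between 5.48 and 5.49. Arrays of the same segment had a Spearman correlation of 0.994 across probe sets, against 0.965 to 0.969 between distal colon and ileum. The log2 ratio of 3' over 5' actin signal, a sign of RNA quality, was 0.93 and 1.01 in distal colon and 0.66 and 0.67 in ileum, and its part in the results was not tested. Over the genes tested, the median size of the difference was 0.28 between segments, 0.09 between diets in distal colon and 0.10 between diets in ileum.

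Of 13599 genes tested, 1206 (8.87%) were called, of which 664 (4.88% of those tested) were higher in distal colon and 542 (3.99%) higher in ileum. At an adjusted p under 0.05 and any fold, 5034 (37%) were higher in distal colon and 2470 (18.2%) lower. The median difference over all genes tested was 0.08. The differences towards ileum were the larger ones: 31 of the 542 ileal genes and 9 of the 664 colonic genes reached 32-fold, and 98 and 46 reached 8-fold. In 102 of the colonic genes and 79 of the ileal genes the dimmer segment was at the floor on both arrays. Averaging all probe sets of a gene, in place of taking the brightest, left 439 genes called higher in distal colon and 481 higher in ileum.

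**Figure D1:**
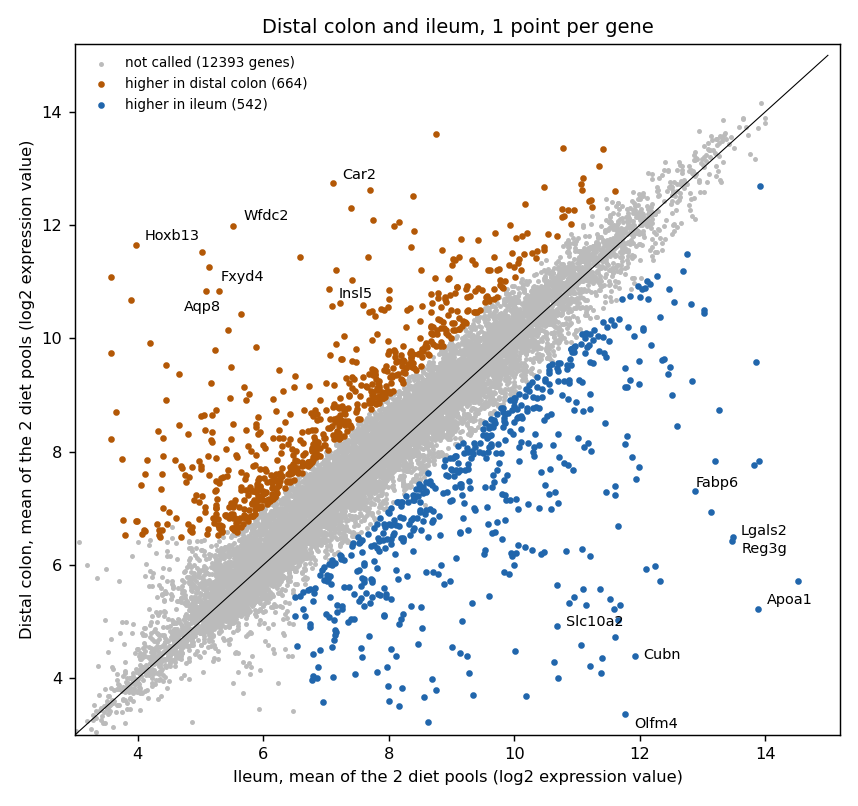
Mean log2 expression value of the 2 diet pools in ileum (horizontal) and in distal colon (vertical), 1 point for each of the 13599 genes tested. The 664 genes called higher in distal colon (orange) lie above the line of equal values and the 542 called higher in ileum (blue) below it, with Hoxb13, Wfdc2 and Car2 far above it and Apoa1, Cubn and Olfm4 far below it.

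Positional genes separated the segments as their labels name them. Hoxb13, the last gene of the HoxB cluster, read 11.78 and 11.52 in distal colon, 4.11 and 3.83 in ileum, and 3.80 and 4.22 in jejunum. Of the gut arrays only those of distal colon lay above the floor, and the difference was at least 72.0-fold (6.17 ± 0.09 SE, adjusted p = 8.31e-09). Hoxd13, the last gene of HoxD, read 10.79 and 10.55 against 3.91 and 3.88 (5.19 ± 0.09, adjusted p = 1.67e-08), although its dimmer probe set gave only 0.49. Hoxd10 at 2.75 ± 0.06, Hoxa10 at 2.40 ± 0.06 and Hoxa9 at 1.05 ± 0.14 were also called higher in distal colon. For Hoxd10 and Hoxa10 both ileum arrays were at the floor.

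The Hox genes called higher in ileum were mostly of lower paralog groups. Hoxc8 read 8.53 and 8.70 in ileum, against 3.32 and 3.15 in distal colon and 3.32 and 3.33 in jejunum. It was thus above the floor in the ileum alone among the 3 gut segments, with a difference of -3.13 ± 0.07 from distal colon and of 3.14 from jejunum, both called. Hoxb6 read 7.68 and 8.03 in ileum, 4.86 and 6.06 in distal colon and 4.46 and 4.51 in jejunum (-2.08 ± 0.15, adjusted p = 1.82e-05). Hoxb3, Hoxb4, Hoxb5, Hoxc4 and Hoxc9 were called with smaller differences, between -1.03 for Hoxb4 and Hoxc4 and -1.21 for Hoxb3. In ileum Hoxb5 read 7.36 and 7.48 and in jejunum 5.26 and 5.30.

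Of the 39 Hox genes of the mouse, 33 had a probe set and 22 were bright enough to test, of which 5 were called higher in distal colon and 7 higher in ileum. The genes were split by position in the cluster, with the values known. Paralog groups 1 to 8 had 0 genes called higher in distal colon and 6 called higher in ileum, out of 12 tested. Groups 9 to 13 had 5 and 1 out of 10, the call in ileum being Hoxc9. Short of the 2-fold threshold the split was less clean. Hoxa7 was higher in distal colon (0.93 ± 0.09, adjusted p = 9.31e-05) and Hoxb9 higher in ileum (-0.85 ± 0.07, adjusted p = 5.09e-05). Hoxd8 was at 0.09. Several of the Hox calls were near the 2-fold threshold. Hoxa9 (1.00), Hoxb3 (-0.81), Hoxb5 (-0.90) and Hoxc4 (-0.99) fell short of it without the control distal colon array, Hoxc4 (-0.97) without the control ileum array, and Hoxc9 (-0.92) without the yogurt distal colon array. Quantile normalization gave Hoxa9 0.94. Averaging probe sets gave Hoxa9 3.08, since its other probe set gave 4.62, but Hoxd13 2.84, Hoxa10 0.41 and Hoxb4 -0.69. Hoxa13, a defining gene of the hindgut, read 5.81 and 5.50 in distal colon and 4.16 and 4.50 in ileum. It lay so near the floor that the tested difference was 0.17 ± 0.09 (adjusted p = 0.14), and 1.32 without a floor.

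**Figure D2:**
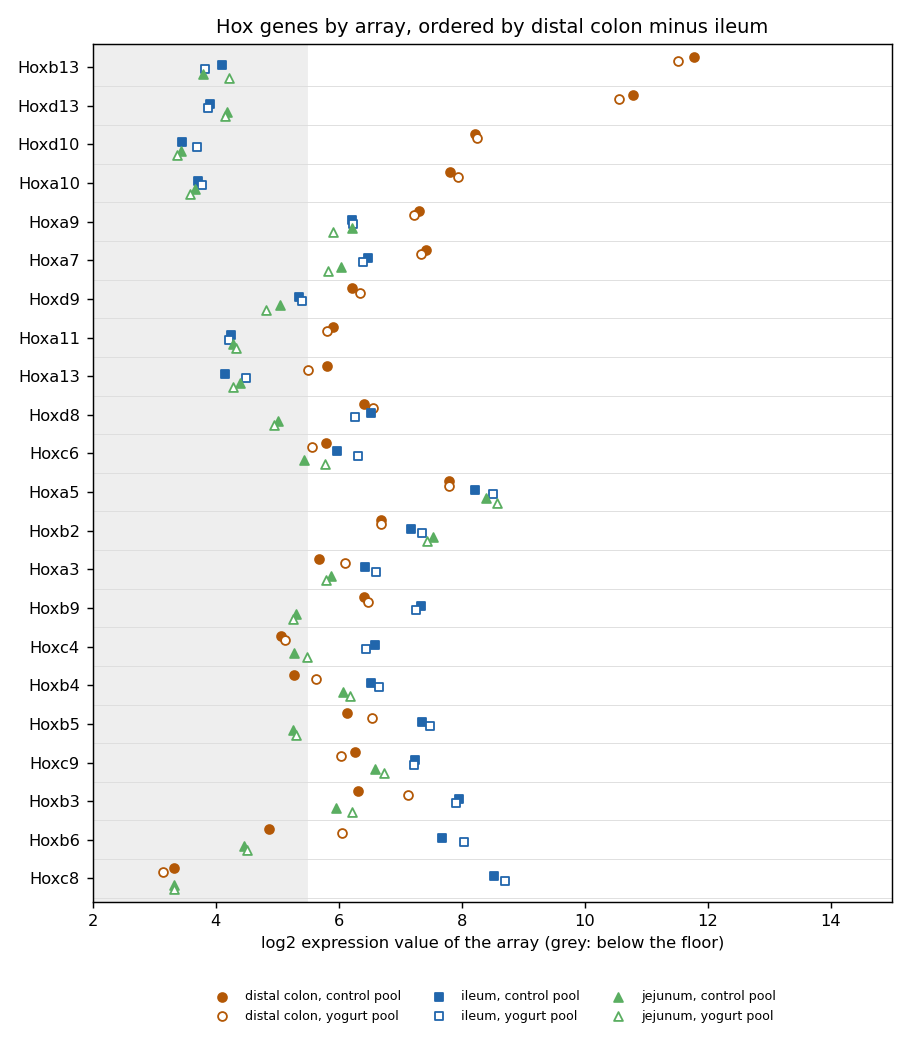
Log2 expression value of the 22 Hox genes tested, by array, for distal colon (circles), ileum (squares) and jejunum (triangles), with filled symbols for control pools and open symbols for yogurt pools; grey marks values below the floor. Hoxb13 and Hoxd13 stand at 10.55 or more in distal colon alone, and Hoxc8 is above the floor in ileum alone.

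Other regulators of gut position and of the epithelium differed in both directions. Of 34 tested, 4 were called higher in distal colon and 10 higher in ileum, with a median of -0.03. Foxd2 (2.90 ± 0.07) and Foxa2 (2.77 ± 0.08), forkhead factors, led the colonic side, Foxd2 at 1.22 when its probe sets were averaged. Foxa2 read 8.84 and 9.03 in distal colon against 6.17 and 6.15 in ileum. On the ileal side stood Isx, an intestinal homeobox repressor of vitamin A uptake (-3.61 ± 0.44), Creb3l3, a membrane-bound factor of lipid metabolism (-3.40 ± 0.15), Tbx3 (-3.07 ± 0.10, and -1.20 with probe sets averaged) and Gata5 (-2.98 ± 0.09). The posterior gut factor Cdx2 was also lower in distal colon, at 8.13 and 9.04 against 10.19 and 9.92 (-1.46 ± 0.24, adjusted p = 0.0015). Its relative Cdx1 was not called, with 10.03 and 9.98 against 9.73 and 9.69. Hnf4a, a nuclear receptor of enterocytes, read 11.89 and 11.85 in distal colon and 12.04 and 12.03 in ileum and was not called (-0.16 ± 0.13, adjusted p = 0.326), while its relative Hnf4g was called higher in ileum (-2.35 ± 0.14). Gata4, which marks the more proximal small intestine, was not called, and it read 8.52 and 8.67 in jejunum but no more than 5.58 on the 4 arrays compared.

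Most genes of bile acid handling were higher in ileum. Of the 11 tested, 8 were called higher in ileum and 1 higher in distal colon, with a median of -2.51. Fabp6, the bile acid binding protein of the enterocyte cytosol, read 13.82 and 13.83 in ileum, 7.47 and 8.05 in distal colon and 4.39 and 4.31 in jejunum. It was 66.9-fold higher in ileum than in distal colon (-6.07 ± 0.15, adjusted p = 8.05e-08), and the distal colon arrays, although far below ileum, stayed above those of jejunum. Slc10a2, the sodium-coupled transporter that takes bile acids up from the lumen, read 10.61 and 10.75 in ileum, 4.23 and 5.61 in distal colon and 3.30 and 3.43 in jejunum (-5.13 ± 0.12).

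The export and signalling steps followed. Slc51a and Slc51b encode the subunits of the transporter that releases bile acids into the blood. Slc51a read 12.14 and 12.07 in ileum against 4.72 and 7.15 in distal colon (-5.78 ± 0.43), and Slc51b 11.52 and 11.41 against 6.93 and 7.66 (-4.17 ± 0.22). On both, the yogurt distal colon pool was above the control pool. Fgf15, the hormone by which the ileum restrains bile acid synthesis in the liver, read 9.17 and 9.09 in ileum and lay below the floor on the other gut arrays, at 4.37 to 4.51 (at least 12.5-fold, -3.64 ± 0.07, adjusted p = 1.82e-08). Nr1h4, the bile acid receptor FXR, was called higher in ileum by a smaller margin, with 10.66 and 10.49 against 8.54 and 8.78 (-1.92 ± 0.12). Its target Nr0b2, a corepressor, differed by -2.44 ± 0.10. Abcc2, an export pump of the apical membrane, differed by -2.51 ± 0.14 with distal colon at the floor, while Abcc4, an export pump of the basolateral membrane, was the member called higher in distal colon (1.24 ± 0.12). Abcc3 (0.79) and the bile acid synthesis enzyme Cyp27a1 (-0.49) were not called.

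Digestive enzymes of the brush border were called higher in ileum in 13 of 17 cases and higher in distal colon in 0, with a median of -3.15. Naaladl1, a peptidase of the apical membrane, read 13.11 and 13.16 in ileum against 6.92 and 6.97 in distal colon and 7.42 and 7.27 in jejunum (-6.19 ± 0.08, adjusted p = 4.82e-09). Anpep, aminopeptidase N, read 11.61 and 11.57 against 5.25 and 5.18 (-6.10 ± 0.08), and Enpep, glutamyl aminopeptidase, 13.26 and 13.27 against 8.66 and 8.79 (-4.54 ± 0.08). Neither pair of segments overlapped. Alpi, intestinal alkaline phosphatase, read 11.07 and 11.10 in ileum, 5.09 and 7.48 in distal colon and 13.36 and 13.18 in jejunum (-4.60 ± 0.47). Lactase was at the floor in both segments: Lct read 5.22 and 4.42 in ileum and 3.84 and 4.14 in distal colon, against 10.50 and 9.98 in jejunum. Enteropeptidase (Tmprss15) and the alkaline phosphatase Akp3 likewise lay below the floor in both segments and above it in jejunum.

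Fat absorption and lipoprotein assembly differed as strongly, with 21 of 27 genes called higher in ileum, 1 higher in distal colon and a median of -2.38. Apoa1, the main apolipoprotein of high-density lipoprotein, read 13.93 and 13.85 in ileum and lay at the floor in distal colon with 5.39 and 5.06, at least 339-fold apart (-8.40 ± 0.05, adjusted p = 1.49e-10). Its 4 probe sets gave -8.23 to -8.45. Apoc3 (-5.71 ± 0.07) and Apoa4 (-5.57 ± 0.10), apolipoproteins of chylomicrons, Mogat2, which rebuilds triglyceride (-5.46 ± 0.13), and Mttp, which loads it onto apolipoprotein B (-5.39 ± 0.08), were also at the floor in distal colon. Npc1l1, the sterol uptake channel of the brush border, read 10.51 and 10.75 in ileum against 4.32 and 4.26 (-5.14 ± 0.09). Fabp1, the liver-type fatty acid binding protein, was far lower in ileum than in jejunum, at 8.69 and 8.69 against 13.50 and 13.30. It was at the floor in distal colon (-3.20 ± 0.07). Scarb1, a lipoprotein receptor, was the member called higher in distal colon (1.08 ± 0.07), with 8.02 and 7.87 against 6.89 and 6.85, and it read 1.00 with quantile normalization, short of the call. The fatty acid transporter Cd36 read 7.93 and 8.35 against 8.09 and 8.32 and was not called (-0.06 ± 0.12).

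Of the transporters and binding proteins for sugars, amino acids, minerals and vitamins, 24 of 38 were called higher in ileum and 4 higher in distal colon, with a median of -1.29. Cubn, cubilin, the receptor for vitamin B12 with intrinsic factor, read 11.96 and 11.88 in ileum against 4.39 and 4.40 in distal colon and 4.88 and 4.98 in jejunum (at least 86.3-fold, -6.43 ± 0.07, adjusted p = 3.71e-09). Only the ileum lay above the floor. Its partner Amn read 10.97 and 10.76 in ileum, 7.80 and 7.73 in distal colon and 9.85 and 9.47 in jejunum (-3.10 ± 0.17). The neutral amino acid carrier Slc6a19 (-6.11 ± 0.13), the sulfate carrier Slc13a1 (-5.99 ± 0.11) and both subunits of the cystine carrier, Slc3a1 (-4.91 ± 0.42) and Slc7a9 (-4.42 ± 0.13), followed. The glucose carrier Slc5a1 read 11.99 and 11.99 in ileum against 9.65 and 9.55 (-2.39 ± 0.20), and the peptide carrier Slc15a1 differed by -1.28 ± 0.10.

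On the colonic side of this group were the iron exporter Slc40a1, the amino acid carriers Slc6a14 and Slc36a1, and the folate carrier Slc46a1. Slc40a1, ferroportin, read 11.38 and 11.43 in distal colon against 8.96 and 9.10 in ileum (2.37 ± 0.08), and 11.98 and 11.80 in jejunum. Slc6a14 read 10.00 and 9.96 against 7.94 and 7.54 (2.25 ± 0.12). Slc46a1 was called with 6.94 and 6.80 against 5.84 and 5.82 (1.04 ± 0.09), and its value was 0.99 without the control ileum array and 0.93 with quantile normalization.

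Many genes of absorption are known to be controlled by nuclear receptors of the HNF4 family and by the homeobox factor HNF1, whose core sites can be searched by letters. In the 250 bases before the first listed start (RefSeq, mouse assembly GRCm38.p6), both strands, the HNF4 motif CAAAGTCCA was found in 1.90% of 420 promoters of genes called higher in ileum, 0.398% of 503 of genes called higher in distal colon and 0.44% of 10918 of all genes tested. For the variant CAAAGGTCA these shares were 1.43%, 0.199% and 0.302%, and for an HNF1 motif 1.43%, 1.19% and 0.339%. Matches of different motifs were counted separately, also where they overlapped. The 8 ileal promoters with the HNF4 motif, the 6 with the variant and the 6 with the HNF1 motif are few, and the shares are descriptions. The shares for the CDX motif TTTATGG were 2.38%, 1.39% and 1.68%, and those for the GATA motif AGATAA 8.81%, 7.16% and 6.45%. A HOXB13 motif, CCAATAAA, was found in 0.714%, 0.795% and 0.833%. An inverted repeat bound by FXR was found in 0.476% of the ileal promoters (2 of 420), 0 of the colonic ones and 0.0183% of all tested.

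The promoters of 5 transporters and enzymes of the results are printed because each holds one of these motifs, with 4 genes called higher in ileum and the chloride exchanger Slc26a3 called higher in distal colon. Each runs 5′ to 3′ on the gene's strand and ends at the base before the listed start, with motif matches in capitals. Slc3a1 (chr17:85028097-85028346, plus strand) has an HNF4 match that begins 39 bases before the start and a GATA match at 119. Alpi (chr1:87101607-87101856, minus strand) has an HNF4 match at 19. Rbp2 (chr9:98490287-98490536, plus strand) has the variant at 58 and GATA at 43, both on the opposite strand. Npc1l1 (chr11:6230246-6230495, minus strand) has HNF1 at 44, also on the strand opposite to the gene. Slc26a3 (chr12:31437969-31438218, plus strand) has HNF1 at 84 and the variant at 136.
Slc3a1: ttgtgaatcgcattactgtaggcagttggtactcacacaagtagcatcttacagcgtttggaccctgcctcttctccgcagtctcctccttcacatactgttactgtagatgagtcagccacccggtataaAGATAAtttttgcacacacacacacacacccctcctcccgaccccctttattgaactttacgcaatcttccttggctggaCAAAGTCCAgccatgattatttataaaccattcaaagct
Alpi: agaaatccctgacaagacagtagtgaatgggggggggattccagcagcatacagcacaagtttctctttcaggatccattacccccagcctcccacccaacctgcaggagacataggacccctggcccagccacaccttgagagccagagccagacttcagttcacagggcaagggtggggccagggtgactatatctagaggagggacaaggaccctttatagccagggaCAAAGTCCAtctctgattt
Rbp2: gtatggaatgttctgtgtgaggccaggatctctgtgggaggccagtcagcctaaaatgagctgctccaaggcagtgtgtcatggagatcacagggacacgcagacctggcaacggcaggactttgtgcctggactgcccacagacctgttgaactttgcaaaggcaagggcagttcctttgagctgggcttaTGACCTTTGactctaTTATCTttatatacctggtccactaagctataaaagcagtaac
Npc1l1: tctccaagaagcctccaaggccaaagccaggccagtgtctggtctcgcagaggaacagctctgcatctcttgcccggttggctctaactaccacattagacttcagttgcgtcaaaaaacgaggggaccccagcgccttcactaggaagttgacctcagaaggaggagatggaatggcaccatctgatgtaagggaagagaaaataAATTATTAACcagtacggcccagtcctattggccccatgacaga
Slc26a3: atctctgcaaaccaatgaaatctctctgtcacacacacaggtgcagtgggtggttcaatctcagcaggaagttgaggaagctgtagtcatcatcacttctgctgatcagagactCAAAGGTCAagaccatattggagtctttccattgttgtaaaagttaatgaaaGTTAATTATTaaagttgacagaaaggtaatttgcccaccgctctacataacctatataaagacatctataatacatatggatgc

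Vitamin A handling was part of the same pattern. Of 19 genes of retinoid metabolism tested, 6 were called higher in ileum and 1 higher in distal colon, with a median of -0.41. Rdh7, a retinol dehydrogenase, read 10.23 and 10.15 in ileum and was at the floor in distal colon (-4.70 ± 0.10). Rbp2, the retinol binding protein of enterocytes whose promoter is printed above, read 9.10 and 9.03 against 6.07 and 6.16 (-2.95 ± 0.07, adjusted p = 8.94e-08). In jejunum Rbp2 read 11.23 and 11.22. Rdh16 was the member called higher in distal colon (1.41 ± 0.08).

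Paneth cell and antimicrobial genes held the largest fitted ileal difference among named genes, although that of Apoa1 is a lower bound and may be larger. Of 21 tested, 10 were called higher in ileum and 3 higher in distal colon, with a median of -0.35. Defa31, an alpha-defensin, read 14.53 and 14.53 in ileum and 5.90 and 5.54 in distal colon (449-fold, -8.81 ± 0.95, adjusted p = 0.000161). The ileum values are at the top of the range of the arrays, where differences can be compressed, and the distal colon values are just above the floor, so the fold is approximate. In jejunum it read 7.16 and 11.11, and the SE includes that gap between diets. Defa39 read 12.24 and 12.43 against 5.80 and 5.64 (-6.62 ± 0.13). Alpha-defensin transcripts are alike in sequence, so these probe sets may bind several of them. Mmp7, the protease that activates alpha-defensins in Paneth cells, read 10.47 and 10.48 against 6.06 and 6.39 (-4.26 ± 0.09). The lectin Reg3a read 10.71 and 10.67 in ileum and was at the floor in distal colon (-5.20 ± 0.17). Lyz1, lysozyme, differed by less, with 13.89 and 13.95 against 12.69 and 12.71 (-1.22 ± 0.04). Another probe set of Lyz1 gave -2.39.

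Several antimicrobial genes were low in the control distal colon pool and much higher in the yogurt one. Reg3b, a bactericidal lectin, read 5.10 and 10.59 in distal colon and 13.90 and 13.91 in ileum (-5.86 ± 1.08, adjusted p = 0.00255). Without the control distal colon array its difference was -3.61. Reg3g, its close relative, read 5.02 and 7.98 against 13.43 and 13.54 (-6.75 ± 0.56). Ang4, a microbicidal ribonuclease, read 5.64 and 10.15 against 11.65 and 12.11 (-3.99 ± 0.99, adjusted p = 0.0105), and Itln1, a lectin, 5.86 and 8.76 against 12.80 and 12.96 (-5.57 ± 0.66). The ileum arrays of these genes lay within 0.46 of each other. On the colonic side were Slpi, a secreted protease inhibitor, with 11.35 and 11.24 against 9.04 and 8.96 (2.29 ± 0.24), Wfdc18 (1.83 ± 0.18) and Mptx1 (1.46 ± 0.21).

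The leading colonic genes of the whole comparison included secreted defence proteins as well. Wfdc2, a whey acidic protein family protease inhibitor, had the largest fitted colonic difference among named genes. Those of genes at the floor in ileum, such as Hoxb13, Hoxd13, Atp12a and Lpo, are lower bounds and may be larger. Wfdc2 read 12.13 and 11.84 in distal colon, 5.48 and 5.54 in ileum and 9.02 and 8.61 in jejunum (89.2-fold, 6.48 ± 0.19, adjusted p = 2.21e-07). Lpo, lactoperoxidase, read 11.51 and 11.55 in distal colon and was at the floor in ileum and jejunum (6.05 ± 0.07). Tgm3, a transglutaminase, read 10.86 and 10.79 against 5.21 and 5.38 (5.35 ± 0.07, with the other probe set at 2.49). Thbs4, a matrix glycoprotein (4.86 ± 0.09), Hao2, a peroxisomal hydroxyacid oxidase (4.90 ± 0.35), and Sycn, syncollin (4.87 ± 0.35), stood beside them. Of the leading ileal genes outside the lists above, Lgals2, a galectin, read 13.47 and 13.47 against 6.40 and 6.45 (-7.04 ± 0.06), Bcl2l15 11.44 and 11.36 against 4.28 and 4.44 (-5.91 ± 0.36), and Ccl25, the chemokine that draws lymphocytes to the small intestine, 12.26 and 12.22 against 6.02 and 5.93 (-6.27 ± 0.08). The other probe set of Ccl25 gave -0.42.

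Ion and water transport genes were called higher in distal colon in 14 of 48 cases and higher in ileum in 6, with a median of 0.32. Fxyd4, a regulator of the sodium pump, read 11.33 and 11.21 in distal colon, 5.04 and 5.24 in ileum and 5.0 and 5.12 in jejunum (at least 55.2-fold, 5.79 ± 0.08, adjusted p = 5.78e-09). Atp12a, the colonic proton-potassium pump, read 11.14 and 11.05 against 3.38 and 3.76 (at least 49.0-fold, 5.61 ± 0.07). Both lay above the floor in the distal colon alone among the gut segments. Among the subunits of the epithelial sodium channel, Scnn1g read 8.0 and 7.65 against 5.09 and 4.88 (2.35 ± 0.10) and was called. Scnn1b at 0.95 ± 0.06 and Scnn1a at 0.90 ± 0.13 were just short of 2-fold. Hsd11b2, the enzyme that keeps cortisol-like steroids off the mineralocorticoid receptor, read 10.92 and 10.93 against 9.16 and 9.33 (1.68 ± 0.09).

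Water channels and carbonic anhydrases differed member by member. Aqp8 read 10.94 and 10.72 in distal colon against 5.10 and 5.05 in ileum (at least 40.7-fold, 5.35 ± 0.14), and Aqp4 10.16 and 10.87 against 7.83 and 7.93 (2.63 ± 0.16). Aqp11 differed in the other direction (-1.56 ± 0.12), at -0.95 when its probe sets were averaged. Car2, a cytosolic carbonic anhydrase, read 12.76 and 12.74 in distal colon, 7.23 and 7.0 in ileum and 10.92 and 10.95 in jejunum, so that the ileum was the lowest of the 3 segments (49.7-fold, 5.64 ± 0.10, adjusted p = 1.68e-08). Car1 read 11.39 and 12.71 against 8.81 and 7.54 (3.88 ± 0.49), with a difference of 2.58 in control pools and 5.17 in yogurt pools. Car4, a membrane-bound form used as a colonic marker, did not separate the segments, with 10.19 and 10.59 against 10.33 and 10.49 (-0.02 ± 0.11). Car12 (-2.10 ± 0.20) and Car13 (-1.39 ± 0.15) were called higher in ileum, Car12 at -0.43 when its probe sets were averaged.

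The anion exchangers also split. Slc26a3, the chloride-bicarbonate exchanger of the colonic surface, read 12.30 and 12.25 in distal colon and 10.79 and 10.74 in ileum (1.51 ± 0.06, adjusted p = 7.41e-07). Slc26a6, a related exchanger, read 11.12 and 11.08 in ileum and 5.64 and 5.51 in distal colon (-5.53 ± 0.09, adjusted p = 1.68e-08). The anion channels Best2 (2.76 ± 0.08) and Ano1 (2.72 ± 0.11) were on the colonic side. Guca2b, uroguanylin, a peptide that stimulates chloride secretion, read 12.68 and 12.52 in ileum against 8.40 and 8.51 (-4.14 ± 0.11), and its relative Guca2a was not called (-0.53 ± 0.08). Slc16a1, a carrier of short-chain fatty acids, was called higher in distal colon (1.08 ± 0.05). The sodium-coupled carrier Slc5a8 read 10.67 and 10.72 in distal colon and 10.16 and 10.20 in ileum, a difference short of 2-fold (0.51 ± 0.07), while jejunum read 3.67 and 3.87.

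**Figure D3:**
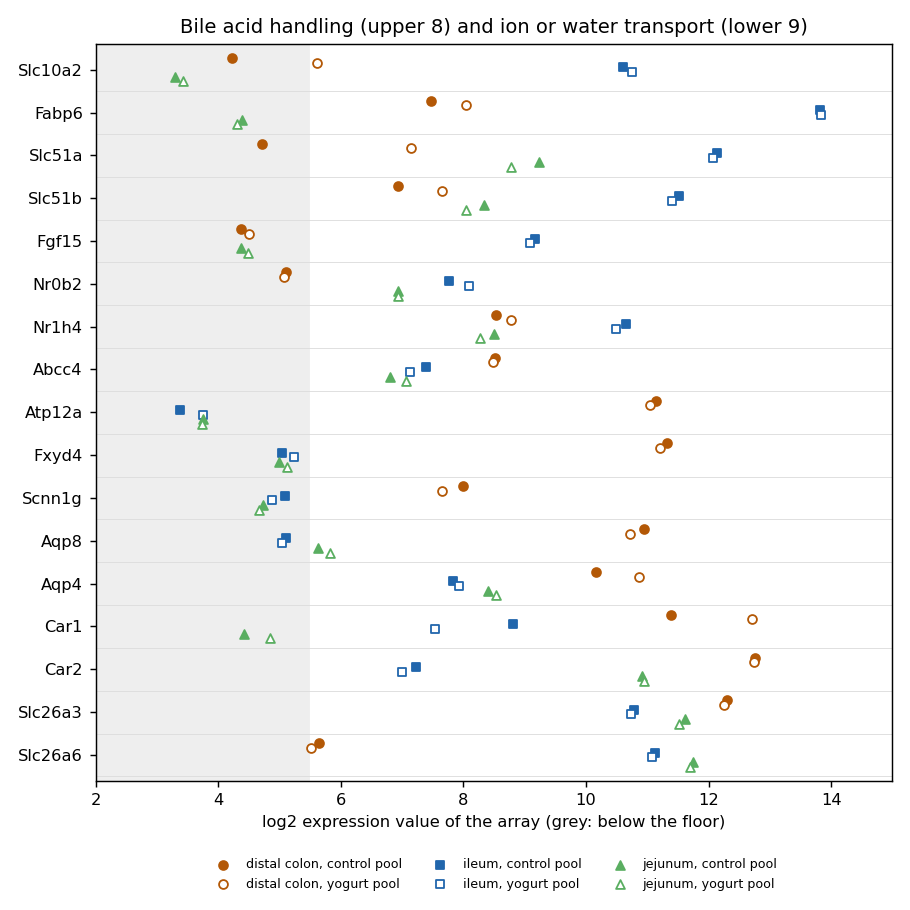
Log2 expression value by array for 8 genes of bile acid handling (upper) and 9 of ion or water transport (lower) in distal colon (circles), ileum (squares) and jejunum (triangles), filled for control and open for yogurt pools; grey marks values below the floor. Slc10a2, Fabp6 and Fgf15 are highest in ileum and lowest or at the floor in jejunum, Atp12a and Fxyd4 are above the floor in distal colon alone, and Car2 is lowest in ileum.

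The classical goblet cell products did not separate the segments. Muc2, the gel-forming mucin of the gut, read 12.69 and 13.12 in distal colon and 13.12 and 13.10 in ileum (-0.21 ± 0.10, adjusted p = 0.133). Zg16, a lectin of the mucus layer, read 13.86 and 13.94 against 13.98 and 14.02 (-0.10 ± 0.09, adjusted p = 0.407). Both are near the top of the range of the arrays, where differences can be compressed. Of 38 goblet cell and mucus genes tested, 9 were called higher in distal colon and 2 higher in ileum, with a median of 0.59. Sval1 led with 12.60 and 12.65 against 7.79 and 7.61 (4.92 ± 0.08, adjusted p = 1.67e-08). The Rab-binding protein Rep15 (2.03 ± 0.11), the kallikrein Klk1 (1.92 ± 0.21, and 0.95 with probe sets averaged), the secretory transcription factor Creb3l1 (1.85 ± 0.12) and Bcas1 (1.45 ± 0.18, and 0.87 with probe sets averaged) followed. Agr3, a secretory chaperone, was higher in ileum (-1.76 ± 0.07).

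Of 41 enzymes that build and cap mucosal sugar chains, 12 were called higher in distal colon and 5 higher in ileum, with a median of 0.38. B3gnt5, which starts lactoseries glycolipids, read 10.46 and 10.42 in distal colon against 5.84 and 5.46 in ileum (4.78 ± 0.13, with its other probe set at 0.32). B3galt5, which builds type 1 chains, read 10.05 and 10.25 against 5.26 and 5.60 (4.61 ± 0.13, other probe sets from 1.47). B3gnt7 (3.19 ± 0.07), Gcnt1, the core 2 branching enzyme (2.89 ± 0.12), and Fut2, the secretor fucosyltransferase (2.71 ± 0.09), were next. Fut2 read 8.47 and 8.76 in distal colon, 5.77 and 6.05 in ileum and 5.71 and 5.82 in jejunum. In ileum B4galnt2, which adds the last sugar of the Sd(a) antigen, read 12.50 and 12.53, against 7.52 and 10.48 in distal colon (-3.51 ± 0.68, adjusted p = 0.0032, and -2.04 without the control distal colon array). Mgat4c read 9.97 and 10.01 against 7.85 and 9.18 (-1.47 ± 0.31), and at -0.81 it was not called without that array.

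Of 31 genes of enteroendocrine hormones and factors tested, 8 were called higher in ileum and 1 higher in distal colon, with a median of -0.12. Nts, neurotensin, read 11.39 and 11.36 in ileum, 4.12 and 7.01 in distal colon and 4.77 and 4.75 in jejunum (-5.12 ± 0.36, adjusted p = 1.8e-05). Sct, secretin (-3.62 ± 0.18), Sst, somatostatin (-1.93 ± 0.15), and Gcg, the precursor of glucagon-like peptides (-1.63 ± 0.12), were also called. Insl5, an insulin-like peptide of hindgut L cells, was the colonic hormone, with 10.67 and 10.50 in distal colon, 7.07 and 7.11 in ileum and 4.22 and 3.95 in jejunum (3.50 ± 0.08, adjusted p = 6.49e-08). Pyy, another L cell hormone, read 10.77 and 10.59 against 10.02 and 9.87, short of 2-fold (0.73 ± 0.08).

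Crypt genes differed little as a group, apart from Olfm4. Olfm4, a marker of small intestinal stem cells, read 11.73 and 11.81 in ileum and 3.20 and 3.54 in distal colon (at least 77.9-fold, -6.28 ± 0.27, adjusted p = 1.62e-06). Of 24 stem cell and Wnt target genes, 3 were called higher in ileum and 1 in distal colon, with a median of 0.05. Lgr5, the stem cell receptor, read 7.97 and 8.09 in ileum against 6.64 and 6.78 (-1.32 ± 0.09), and -0.55 when its probe sets were averaged. Clu, clusterin, read 11.59 and 11.29 in distal colon against 9.11 and 9.14 (2.32 ± 0.07). None of the 33 cell proliferation genes was called, and their median was -0.26. Mki67 read 9.14 and 9.50 in distal colon and 9.45 and 9.57 in ileum.

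Detoxifying enzymes differed in both directions. Of 65 tested, 22 were called higher in ileum and 13 higher in distal colon, with a median of -0.32. Ileal members included the sulfotransferase Sult2b1 (-2.86 ± 0.11) and cytochrome P450 enzymes of the Cyp3a and Cyp4 families, with Cyp3a25 at 11.48 and 11.30 against 3.55 and 4.63 (-5.90 ± 0.08), Cyp4f14 (-4.97 ± 0.21), Cyp3a11 (-3.07 ± 0.19) and Cyp4b1 (-2.86 ± 0.45, and -1.88 without the control distal colon array). Colonic members included Cyp2d34 (4.05 ± 0.07), the sulfotransferase Sult1a1 with 11.92 and 12.06 against 8.07 and 8.11 (3.90 ± 0.07), the alcohol dehydrogenase Adh1 (2.58 ± 0.12) and the glutathione transferases Gstm2 (2.27 ± 0.14) and Gstm1 (1.94 ± 0.16). Adh1 read 13.40 and 13.33 in distal colon and 13.01 and 12.80 in jejunum, but 10.91 and 10.65 in ileum. Cyp2c55 read 9.63 and 11.46 in distal colon and 8.47 and 7.49 in ileum (2.57 ± 0.53, adjusted p = 0.00442), and 1.53 without the yogurt distal colon array. It was not called when the 4 arrays were fitted alone.

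Metabolic lists followed the absorptive genes in part. Of 19 sugar metabolism genes, 7 were called higher in ileum and 3 higher in distal colon, with a median of -0.09. Fbp1, a gluconeogenic enzyme, read 10.05 and 10.00 in ileum against 6.15 and 6.26 (-3.82 ± 0.09), and Khk, which starts fructose breakdown, differed by -2.24 ± 0.14. Hk1, a hexokinase, was on the colonic side (1.78 ± 0.06). Cholesterol synthesis had 5 of 19 genes called higher in ileum and 0 higher in distal colon, with a median of -0.78. Cyp51, an enzyme of that pathway, read 10.11 and 10.01 in ileum against 8.59 and 8.63 (-1.45 ± 0.11). Of 28 fatty acid oxidation genes 4 were called higher in ileum and 1 higher in distal colon, with a median of -0.3. The colonic one was Acsm3, which activates medium-chain fatty acids, at 10.69 and 10.48 against 7.76 and 7.42 (3.0 ± 0.10). The ileal ones included Acaa1b, a peroxisomal thiolase, at 8.95 and 8.98 against 3.93 and 7.48 (-2.48 ± 0.52, and -1.41 without the control distal colon array). None of the 28 oxidative phosphorylation genes was called, and their median of 0.11 was close to that of all genes tested.

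Among junction proteins, 3 of 28 were called higher in distal colon and 2 higher in ileum, with a median of 0.0. Of all genes tested, 4.88% and 3.99% were called in these directions. Cldn8, a sealing claudin, read 10.46 and 10.51 in distal colon, 7.64 and 7.81 in ileum and 5.43 and 5.38 in jejunum (2.76 ± 0.08, adjusted p = 1.65e-07). Cldn15, a pore-forming claudin, read 8.01 and 8.60 against 9.98 and 9.98 (-1.67 ± 0.15). Krt20, a keratin of mature epithelium, was higher in ileum (-1.50 ± 0.07). Krt78 was called as well, but on 1 array. It read 6.47 and 9.38 in ileum against 5.59 and 5.59 (-2.33 ± 0.71, adjusted p = 0.024), and it was not called at -0.83 without the yogurt ileum array, at -2.02 without the yogurt distal colon array or at -2.64 without the control one.

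**Figure D4:**
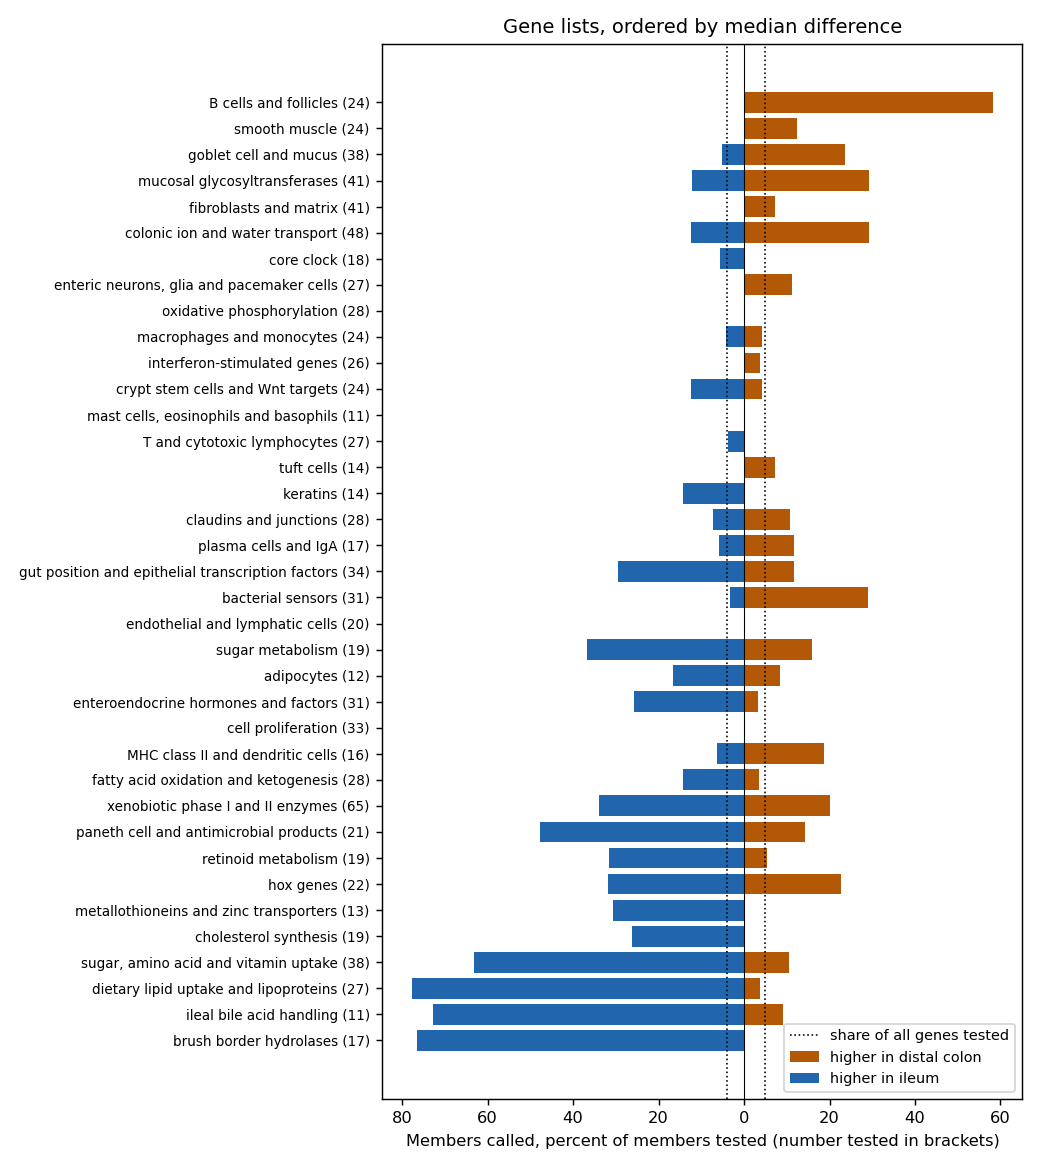
Percent of the tested members of each gene list called higher in distal colon (orange, right) or in ileum (blue, left), for lists with at least 10 members tested, ordered by median difference, with the number tested in brackets; dotted lines mark the 4.88% and 3.99% of all genes tested. B cells and follicles lead on the colonic side with 14 of 24, and lipid uptake, brush border and bile acid lists on the ileal side.

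B cell genes were the immune list that differed most. Of 24 tested, 14 were called higher in distal colon and 0 higher in ileum, with a median of 1.13. In whole tissue, fewer cells of a type and less RNA per cell cannot be told apart. Ms4a1, which encodes CD20, read 8.66 and 8.65 in distal colon and 5.27 and 4.83 in ileum, below the floor (3.17 ± 0.12, adjusted p = 8.51e-07). Cxcl13, the chemokine that gathers B cells into follicles, read 11.69 and 11.56 against 8.31 and 8.40 (3.27 ± 0.32). Bank1 (2.34 ± 0.09), Blnk (2.20 ± 0.06) and Cd79b (2.09 ± 0.08), parts of B cell receptor signalling, were also called. Of the list, 22 genes were above the floor on each distal colon array and 16 on each ileum array, and its mean level was 7.44 and 7.33 against 5.98 and 5.89. Cd79a was not called, with 6.51 and 6.38 against 6.19 and 5.94. How many lymphoid follicles each dissected segment held is not given in the labels.

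Plasma cell genes did not follow. Igha, the constant region of IgA, read 13.82 and 13.80 in distal colon and 13.99 and 14.02 in ileum (-0.19 ± 0.35, adjusted p = 0.707), and Jchain 12.55 and 12.60 against 12.92 and 12.99 (-0.38 ± 0.23). Of 17 tested, 1 was called higher in ileum and 2 higher in distal colon, Ighm at 12.01 and 11.49 against 9.10 and 9.20 (2.60 ± 0.19) and Ighg3 at 9.07 and 9.26 against 6.55 and 6.92 (2.43 ± 0.10). Both depended on the probe set, with 0.88 and 0.01 when probe sets were averaged. Gzma, a granule protease of cytotoxic lymphocytes, read 7.92 and 8.52 in ileum, 4.77 and 5.51 in distal colon and 10.32 and 10.42 in jejunum (-2.72 ± 0.15). It was the 1 gene called of 27 in the list of T and cytotoxic lymphocytes. Of 24 macrophage and monocyte genes 1 was called in each direction, and of 26 interferon-stimulated genes 1, higher in distal colon. Of 11 mast cell and eosinophil genes 0 were called. Over all genes tested 4.88% were called higher in distal colon and 3.99% higher in ileum, so nothing is read from the counts of these lists.

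Of 16 genes of antigen presentation by class II molecules and of dendritic cells, 3 were called higher in distal colon and 1 higher in ileum, with a median of -0.26. H2-Ob, a regulator of peptide loading found in B cells, read 7.70 and 7.64 in distal colon against 5.44 and 5.42 (2.19 ± 0.12). H2-DMa, a chain of the peptide loading complex, was the ileal member, at 7.86 and 7.98 against 9.03 and 9.09 (-1.13 ± 0.12). H2-Ab1, a class II chain, read 10.83 and 10.83 against 11.47 and 11.64 and was not called (-0.73 ± 0.08). Sensors of bacteria and their partners had 9 of 31 genes called higher in distal colon and 1 higher in ileum, with a median of -0.03. Gsdmc2, a gasdermin, read 11.13 and 11.29 against 6.54 and 7.78 (4.05 ± 0.29). Il1rn, the interleukin 1 receptor antagonist (2.45 ± 0.45), Tlr2 (1.91 ± 0.10) and Tlr1 (1.90 ± 0.13), receptors of bacterial lipoproteins, were called too. Tlr4, the receptor of lipopolysaccharide, read 6.80 and 6.82 against 5.04 and 5.51 (1.32 ± 0.08). Naip5, a sensor of flagellin, was the member higher in ileum, with 10.47 and 10.33 against 8.75 and 8.80 (-1.63 ± 0.09).

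Of 24 smooth muscle genes tested, 3 were called higher in distal colon and 0 higher in ileum, and the median difference was 0.66, against 0.08 over all genes tested. Myh11, smooth muscle myosin, read 11.66 and 11.42 against 11.07 and 11.23 and was not called (0.39 ± 0.14, adjusted p = 0.0436). Cnn1, calponin, read 11.73 and 11.40 against 10.38 and 10.56 (1.10 ± 0.12). It fell short of 2-fold without the control distal colon array (0.89) or the control ileum array (0.99). The other called members, Tagln (1.00 ± 0.09) and Hspb7 (1.24 ± 0.15), also fell short without the control distal colon array, at 0.85 and 0.99. Tagln was 0.97 with quantile normalization, and Hspb7 was 0.75 when its probe sets were averaged. The list's median was 0.79 in control pools and 0.39 in yogurt pools. Of 41 fibroblast and matrix genes 3 were called higher in distal colon, where 4.88% of all genes tested were. Postn, periostin, led them at 11.54 and 11.31 against 9.69 and 9.65 (1.75 ± 0.15). The others were less firm. Fbln1 (1.28 ± 0.09) was 0.51 when its probe sets were averaged, and Cd34 (1.00 ± 0.10) was 0.93 with quantile normalization. Of 27 genes of enteric neurons, glia and pacemaker cells 3 were called higher in distal colon. The list's median was 0.16, against 0.08 over all genes tested. Nefl, a neurofilament, led them at 7.40 and 7.35 against 6.07 and 5.73 (1.48 ± 0.10). The share of wall tissue in each sample was not measured, and its part in the other results was not tested.

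Many markers of other organs lay below the floor on the 4 arrays, but some were bright. Of 19 genes of the exocrine pancreas with a probe set, 6 to 8 were above the floor on an array, and the enzymes Cela2a and Cpa1 read no more than 5.02, against 11.57 or more in jejunum. The 3 that were called are Pnliprp2, a lipase, at 10.55 and 10.80 in ileum against 5.22 and 6.07 (-4.90 ± 0.27), Clps, colipase (-2.17 ± 0.23), and Cela1, an elastase, at 12.64 and 12.39 in distal colon against 8.55 and 8.23 (4.13 ± 0.31). Of 16 hepatocyte genes, 4 to 6 were above the floor. Cps1 (-4.36 ± 0.11) and Otc (-3.26 ± 0.14), urea cycle enzymes that the small intestine also makes, were called higher in ileum. Ttr, transthyretin, (3.85 ± 0.07) and Cyp2f2, a cytochrome P450, (2.13 ± 0.09) were called higher in distal colon. No gene of the stomach or skeletal muscle list was called. Of 6 squamous epithelium genes tested, Lor was called higher in distal colon (1.53 ± 0.12) and Sprr1a higher in ileum (-1.68 ± 0.19). Both were dim, and neither was called with the floor at each array's 65th percentile. Of 5 genes of accessory sex glands and urinary tract, Upk1b was called higher in ileum (-1.59 ± 0.11, probe sets from -2.11 to -0.18). The fibrinogen chains Fga, Fgb and Fgg, which are defining genes of hepatocytes, were below the floor on all 4 arrays.

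Of 222 named genes, 195 were called between distal colon and ileum and 83 between ileum and jejunum, 78 of them in both, where 672 (4.94%) of all genes tested were called between ileum and jejunum. Most of the named genes were chosen for their difference from distal colon and the 2 comparisons share the ileum arrays, so nothing is read from these counts and values stand side by side. Fabp6 was 8.35 higher in ileum than in jejunum, Cubn 6.44, Nts 5.90, Naaladl1 5.79, Slc10a2 5.20 and Fgf15 3.65, and all of them were higher in ileum than in distal colon too. By contrast Apoa1 (0.26), Lgals2 (0.11), Slc13a1 (0.25) and Cyp3a25 (0.10) were not called between ileum and jejunum. Among the colonic genes Car2 (-3.82) and Wfdc2 (-3.31) were lower in ileum than in jejunum, and Insl5 (1.61) and Car1 (2.70) higher.

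The difference between segments was then read within each diet, where it rests on 1 array of each segment and has no test. For the genes called higher in distal colon its median was 1.40 in control pools and 1.39 in yogurt pools, and it was smaller in the yogurt pools for 329 of 664 (49.5%). For the genes called higher in ileum the median size was 1.75 in control pools and 1.53 in yogurt pools, and it was smaller in the yogurt pools for 421 of 542 (77.7%). In 31 of these ileal genes the difference was at least 2-fold smaller in the yogurt pools, and in 2 it was at least 2-fold larger. The distal colon value moved more between diets than the ileum value in 30 of the 31.

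Those 31 genes include antimicrobial proteins and enterocyte genes. Reg3b had differences of -8.41 in control pools and -3.32 in yogurt pools, Ang4 of -6.01 and -1.96, Itln1 of -6.93 and -4.20, and Pla2g2a, a bactericidal phospholipase, of -4.71 and -2.50. Enterocyte genes among them were Alpi with -5.58 and -3.62, Slc3a1 with -5.83 and -3.98, Slc51a with -6.65 and -4.92, and Fabp2, the intestinal fatty acid binding protein, with -5.12 and -3.45. Cdx2 had -2.05 and -0.87. In most of these the ileum arrays were level: Fabp2 read 13.88 and 13.84 there, against 8.76 and 10.39 in distal colon. Apoa1, Defa31, Anpep and Olfm4, by contrast, were low in distal colon in both diets, with Olfm4 at 3.20 and 3.54. Whether the segment difference depends on diet cannot be tested with 1 array of each kind, and a difference in where the segment was taken and an effect of the diet cannot be told apart.

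**Figure D5:**
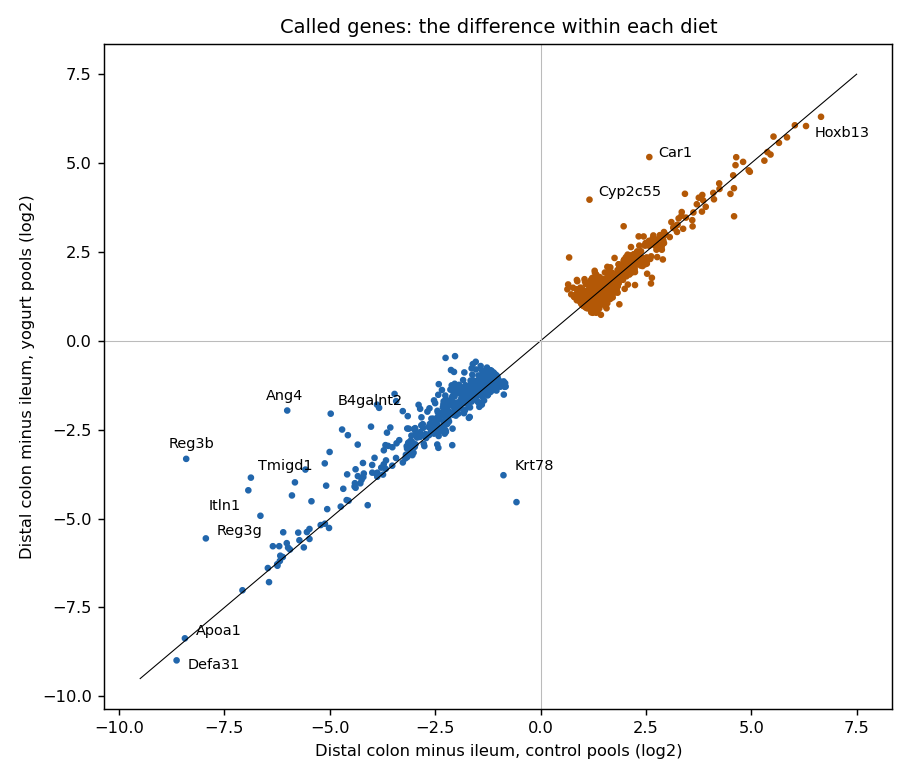
Distal colon minus ileum (log2) in the control pools (horizontal) and in the yogurt pools (vertical) for the 1206 genes called, orange for higher in distal colon and blue for higher in ileum; the line marks equal differences. Blue points lie above the line, towards smaller differences in the yogurt pools, for 421 of 542 genes, with Reg3b at -8.41 and -3.32, while Krt78 lies below it.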

How the data were processed

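Per the labels' protocols, tissue RNA was pooled over the mice of a diet and measured on 1 array. The authors deposited log2 expression values of 45101 probe sets. MAS5 and affy are the tools listed, per the submitters' processing notes, without a version or what each did. How the arrays were scaled is not stated, and nothing further was scaled. Of the probe sets, 34958 have 1 gene symbol in the platform annotation (symbols updated through RefSeq, GRCm38.p6), 932 have several and 9211 none. Each of 18194 genes took its brightest probe set, by the mean of the 10 arrays. Values were raised to each array's 50th percentile, and genes above it on at least 2 of the 10 arrays were fitted in limma 3.58.1 (R 4.3.3; lmFit, eBayes with trend) on tissue and diet, as checked on simulated data. Some probe sets (x_at, s_at) may cross-hybridise with related transcripts. The number of arrays limits the precision.

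The 43 gene lists hold 1209 genes, 1088 with a probe set. Members and lists were chosen with earlier results of these data known. Named genes were the 15 highest and 15 lowest called differences among genes above the 75th percentile on both arrays of the brighter segment with probe sets of 1 sign, up to 5 called members of each list in each direction, all Hox and bile acid genes, segment markers, and defining list members that were not called. Sis and Defa24 were not analysed here. Other named genes, such as those of the comparison within diets and the figure labels, were chosen after their values were seen. Alternatives were the floor, a pseudocount, the filter, the probe set rule, the arrays fitted, the diet and trend terms, the scaling and leaving out each array.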

Additional observations from a re-analysis of the deposited data

Results flagged for a closer look

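In 3 genes the segment difference turned over between the diets and was large on one side or both. The distal colon minus ileum difference of Plet1, a surface protein of epithelial progenitors, was -0.62 in control pools and 3.04 in yogurt pools, that of Saa3, an acute-phase protein, -0.97 and 1.61, and that of 1810065E05Rik -1.41 and 2.46. In each the yogurt distal colon pool was the high array: Plet1 read 5.77 and 9.58 in distal colon (control, then yogurt pool) and 6.39 and 6.54 in ileum, Saa3 5.43 and 8.43 against 6.46 and 6.82, and 1810065E05Rik 8.69 and 11.96 against 10.10 and 9.50. Among genes described above, the signs also differed for Car4 (-0.15 and 0.11), Hoxd8 (-0.11 and 0.29) and Muc2 (-0.43 and 0.02), and the list medians did for tuft cells (0.01 and -0.04), keratins (0.03 and -0.01) and stomach genes (0.01 and -0.05). In all, 1700 genes tested had opposite signs, most of them small. Each value rests on 1 array of each segment, and none of these differences between diets was tested.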

How the results depend on the processing

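The number of genes higher in distal colon than ileum was 664, and it stayed within 1.5 times of that under every alternative run except averaging probe sets, which gave 439. Which segment had more genes called depended on the processing. Quantile normalization gave 593 higher in distal colon and 611 higher in ileum, and averaging probe sets 439 and 481. The number of genes lower in distal colon than ileum was 542, from 454 with a pseudocount of 50 and no floor to 611 with quantile normalization. Without each array in turn the counts ran from 669 to 701 and from 517 to 593, and the count of named genes in jejunum comparisons, ileum against jejunum, from 79 to 83. That count was not run on the 4 arrays alone, which hold no jejunum. Of 195 named genes called, 166 stayed called when the floor was raised to each array's 65th percentile. A further 24 kept their sign but were no longer called. The rest, apart from Ccr9, were no longer tested at that floor. There Ccr9, the receptor of Ccl25, turned from -1.17 to 0.01. At that floor Agr3 (-0.53), Wfdc18 (0.68), Rdh16 (0.67), Nefl (0.75) and Cyp2f2 (0.98) were among those not called. Averaging probe sets also gave B3gnt5 2.64, B3galt5 1.77, Gcnt1 1.61, Fut2 1.45 and Ccl25 -3.35, all still called. It left 170 of the 195 called, and a few others were no longer tested. It lost 23, the pseudocount 22, leaving out the control distal colon array 15, and the other single arrays 2 to 6. Arrays hold 1 pool each, so a lone array left in a group is assumed to vary like the others. The diet term of the fit pairs the segments by diet, and without it the counts were 665 and 541. The labels give no replicate numbers. Values near the floor limit what dim genes can show.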
